A study of Mus musculus with 16 samples.

Results

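The epidermal kallikreins Klk5 to Klk14 are secreted serine proteases whose genes lie side by side on mouse chromosome 7. They were taken by gene symbol from the count table, which gave 10 of its 48440 genes. RNA sequencing gave their levels in ear skin of B6 mice, in 4 groups of 4 animals. HFD_PMA mice had received a high-fat diet for 8 weeks and PMA at 200 ng per ear, 24 h before the ears were collected, and ND_PMA mice the normal diet and the same PMA treatment. HFD_cont and ND_cont mice had received the high-fat and the normal diet and are labelled as not treated. No genotype, transgene, sex or age is given in the labels, and the sources used here do not say whether PMA's solvent was put on untreated ears. PMA, an activator of protein kinase C from the phorbol ester family, inflames mouse skin and thickens its epidermis. Whole ear tissue was used, so a lower share of cells of 1 type and less RNA per cell of that type cannot be told apart.

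Kallikreins of this cluster are made mainly by keratinocytes of the upper epidermis, stored in lamellar granules and released with their contents between the uppermost cells. They are secreted as inactive precursors and are switched on by cutting, partly by each other, in a cascade. In the stratum corneum KLK5, a trypsin-like enzyme, and KLK7, a chymotrypsin-like one, cut proteins of corneodesmosomes, corneodesmosin among them, which lets dead cells be shed. The inhibitor LEKTI, encoded by Spink5, holds them back, and its loss in the human disease Netherton syndrome leaves the barrier defective.

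The 10 genes span 160.8 kb (chromosome 7, 43690418 to 43851181, GRCm38) and are all on the plus strand, in the order Klk14, Klk13, Klk12, Klk11, Klk10, Klk9, Klk8, Klk7, Klk6 and Klk5. The coding transcript with the largest length has between 5 and 7 exons, and the deposited length equalled the summed exon bases of GENCODE M21 for 10 of 10 genes. Promoter windows of 250 bases before each RefSeq start were searched on both strands for 6 short motifs. The AP-1 letters TGANTCA, bound by a factor family that PMA classically activates, were in 0 of 12 windows of these genes and in 6.75% of all 32817 windows. The NF-kB letters, GGGA and CC with any 4 letters between them, were in 2 of the 12, those of Klk10 and Klk9, against 17.6% of all windows. The C/EBP letters TTGCNNAA were in 2 windows, both of Klk11, against 9.57%. The Grainyhead letters AACCNGTT were in 0 of the 12 and in 1.78% of all windows. TATA box letters TATAAA were in 0 of the 12 and in 12.4% of all, and the E-box letters CACGTG in 0 of the 12 and in 6.02% of all. A match here is a run of letters and not a shown site, and the matches found did not overlap each other. The promoters of Klk13 and Klk6 are printed because these genes had the largest called diet effects, and those of Klk10 and Klk9 because they hold the NF-kB letters, in capitals. All are RefSeq sequence of GRCm38.p6, plus strand, ending 1 base before the GENCODE start of the gene. A second RefSeq window of Klk6, chr7:43825200-43825449, lies within the annotated gene, held none of the 6 motifs and is not printed.
Klk13 promoter stretch, chr7:43712317-43712566: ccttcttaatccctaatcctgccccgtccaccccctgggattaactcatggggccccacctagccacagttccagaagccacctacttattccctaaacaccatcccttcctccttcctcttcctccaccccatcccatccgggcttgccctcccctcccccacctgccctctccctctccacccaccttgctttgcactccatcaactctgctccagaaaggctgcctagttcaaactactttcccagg
Klk6 promoter stretch, chr7:43824294-43824498: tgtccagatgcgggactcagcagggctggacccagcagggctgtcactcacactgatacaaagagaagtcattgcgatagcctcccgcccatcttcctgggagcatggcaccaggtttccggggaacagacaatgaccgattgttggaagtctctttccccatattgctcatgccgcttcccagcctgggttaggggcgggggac
Klk10 promoter stretch, chr7:43780804-43781034: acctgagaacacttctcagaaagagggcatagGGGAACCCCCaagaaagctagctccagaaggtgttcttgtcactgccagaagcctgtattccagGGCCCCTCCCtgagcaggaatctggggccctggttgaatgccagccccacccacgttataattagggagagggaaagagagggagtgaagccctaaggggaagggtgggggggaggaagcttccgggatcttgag
Klk9 promoter stretch, chr7:43791641-43791890: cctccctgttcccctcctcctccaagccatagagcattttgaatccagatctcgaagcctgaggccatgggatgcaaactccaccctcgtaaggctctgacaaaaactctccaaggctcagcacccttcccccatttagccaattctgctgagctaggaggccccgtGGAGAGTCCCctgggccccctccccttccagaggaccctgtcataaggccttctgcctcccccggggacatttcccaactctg

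All 10 genes passed the filter on low counts, so that each was among the 17604 genes tested. Library totals lay between 7739487 and 15571389 counts, and 1 CPM (count scaled to the library total after TMM) stood for 7.98 to 15.5 counts. Library IDs in the labels begin with RHS for all 4 ND_cont libraries and HFD_cont replicate 1 and with RHP for the other 11, and the sources used here do not explain the prefix. Hair shaft and inner root sheath markers were higher with the high-fat diet by their median and unequal between libraries of a group. The summed level of these 15 genes ran over 71.6 to 3691 CPM in HFD_PMA, 8.96 to 188 in ND_PMA, 83 to 2882 in HFD_cont and 11.4 to 58.9 in ND_cont libraries. The highest were HFD_PMA replicate 1 and HFD_cont replicate 1. Every HFD_cont library lay above every ND_cont library, while the PMA-treated groups overlapped. The median log2 fold change of the 15 genes was 3.92 with the diet in PMA-treated skin, where 0 were called, and 5.75 in untreated skin, where 1 was called higher (Krt34, a hair keratin gene, named after its values were seen). With PMA it was -0.38 in HFD mice and 1.46 in ND mice, with 0 called in either. The part of hair follicle tissue in the kallikrein levels was not tested. Keratinocyte markers were abundant in every library, with 27822 to 31955 CPM in HFD_PMA, 24936 to 29698 in ND_PMA, 23761 to 24656 in HFD_cont and 18958 to 23092 in ND_cont libraries summed over 10 genes.

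Per transcript length, Klk7 was the highest of the 10 genes in each group and Klk14 the lowest. In TPM, counts per length scaled to the same total in every library, Klk7 averaged 2389.6 ± 168, 2074 ± 213, 1731 ± 48.4 and 1092 ± 128 in HFD_PMA, ND_PMA, HFD_cont and ND_cont skin (SD, n = 4 each). Klk10 came next in 3 of the 4 groups, at 1189 ± 379.9, 864 ± 83.1, 508 ± 61.9 and 389.6 ± 113 TPM in the same order, while Klk5 stood above it in HFD_cont. Klk5 levels were 597 ± 93.9, 568 ± 54.4, 710.1 ± 30.7 and 388 ± 63.2 TPM in HFD_PMA, ND_PMA, HFD_cont and ND_cont skin. Klk11 lay in the middle at 406 ± 39.5, 316 ± 21.8, 355 ± 20.5 and 230.1 ± 38.1 TPM, and Klk8 at 275 ± 6.58, 179 ± 13.2, 231 ± 25.5 and 100.4 ± 3.08 TPM. The ranges of Klk5 and Klk10 overlapped in ND_cont skin, where these 2 genes could not be put in order.

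Klk6 changed its place most between groups by mean TPM. It averaged 654 ± 166, 395 ± 35.6, 125 ± 16.2 and 23.5 ± 9.4 TPM in HFD_PMA, ND_PMA, HFD_cont and ND_cont skin. In HFD_PMA only Klk7 and Klk10 averaged more, and the Klk6 range overlapped that of Klk5. In ND_cont 6 members averaged more than Klk6. Klk13, low in untreated skin, averaged 338 ± 118, 118 ± 32.8, 49.3 ± 18.3 and 5.7 ± 3.22 TPM in the same order of groups. In ND_cont skin it overlapped Klk12, which averaged 4.34 ± 2.79 TPM there, and in HFD_PMA skin it overlapped Klk11, Klk8 and Klk9. Klk12 reached 18.6 ± 7.62 TPM in HFD_PMA skin, and Klk14 had 10.9 ± 3.78 TPM there and 0.519 ± 0.888 TPM in ND_cont skin.

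Summed over the 10 genes, kallikrein mRNA amounted to 6138 ± 796 TPM in HFD_PMA, 4705 ± 282 in ND_PMA, 3879 ± 65.6 in HFD_cont and 2309 ± 315 TPM in ND_cont skin. The ranges of the 4 groups did not overlap. Klk7 made up 39.1 ± 2.32% of this sum in HFD_PMA, 44 ± 2.68% in ND_PMA, 44.6 ± 1.04% in HFD_cont and 47.4 ± 1.51% in ND_cont skin. Klk6 held 10.6 ± 1.63%, 8.44 ± 1.08%, 3.23 ± 0.367% and 1.01 ± 0.332% in the same order of groups. The share of Klk5 was 9.87 ± 2.19% in HFD_PMA and 12.1 ± 0.842% in ND_PMA, against 18.3 ± 0.995% in HFD_cont and 16.8 ± 0.582% in ND_cont skin. Thus the PMA-treated groups had a larger share of Klk6 and a smaller share of Klk5 than the untreated groups, with no overlap of their libraries.

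**Figure D1:**
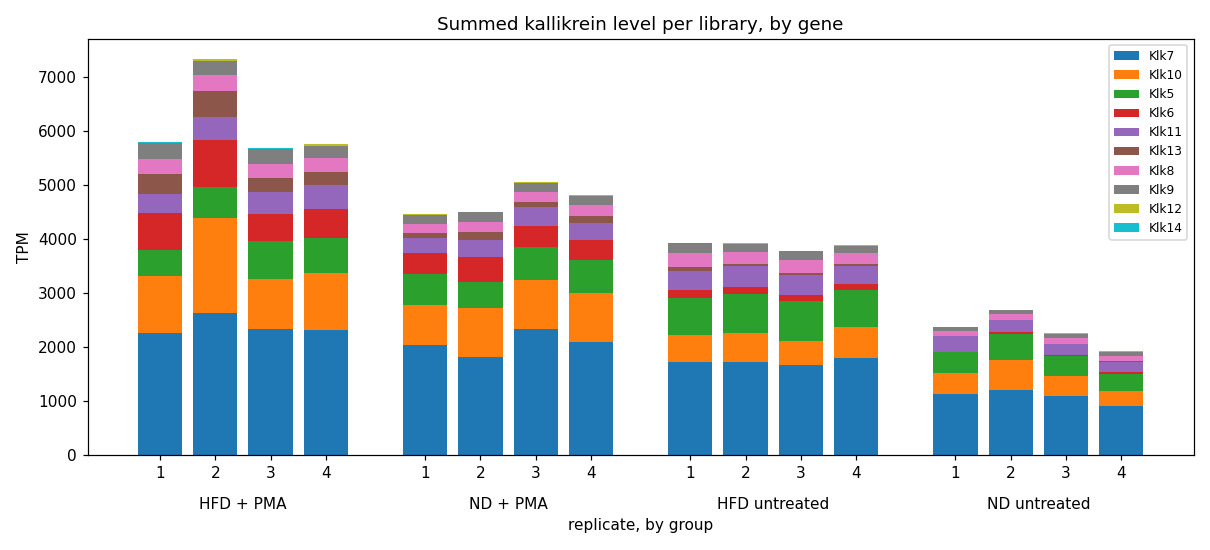
Stacked bars give the summed level of the 10 kallikreins in TPM for each of the 16 libraries, by gene and grouped by diet and treatment. The 4 HFD + PMA libraries reach 5673 to 7329.8 TPM and the 4 untreated ND libraries 1925 to 2689 TPM.

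The first question was how kallikrein expression in PMA-treated ears differed between the diets. Klk6, Klk8, Klk9 and Klk13 were higher in HFD_PMA than in ND_PMA ears, and no member was lower. Klk13 had the largest called difference, with 284 ± 103 CPM in HFD_PMA and 92.8 ± 25.6 CPM in ND_PMA skin (SD, n = 4 each). These were 4 of 10 genes, where 0.943% of all tested genes were called higher (166 of 17604) and 1.26% lower. In 8 of 10 genes all 4 HFD_PMA libraries lay above all 4 ND_PMA libraries, which held for 3.93% of all genes. The median log2 fold change was 0.64 over the 10 kallikreins and -0.03 over all genes tested. Hair shaft and inner root sheath markers had a median log2 fold change of 3.92 here, with 0 of 15 called, and their part in the result was not tested. When libraries were scaled to the keratinocyte markers, 3 kallikreins were called higher, and all genes split into 86 higher and 228 lower, against 166 and 221 with TMM.

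Of the proteases that cut corneodesmosomes, neither Klk5 nor Klk7 was called. Klk5 stood at 231, 283, 337 and 313 CPM in HFD_PMA replicates 1 to 4, against 260.3, 225, 275 and 276 CPM in ND_PMA replicates 1 to 4 (log2 fold change 0.17 ± 0.13 SE, edgeR adjusted p = 0.606). These groups overlapped. Klk7 stood at 1539.7, 1857, 1604 and 1614 CPM in HFD_PMA and 1333, 1181, 1514 and 1344 CPM in ND_PMA libraries (log2 fold change 0.30 ± 0.11 SE, edgeR adjusted p = 0.172). Every HFD_PMA library was above every ND_PMA library, by a small margin. Klk14, a trypsin-like member whose human counterpart can activate other kallikreins, was low, and near the detection limit in ND_PMA libraries. It had 50, 76, 34 and 54 counts in HFD_PMA and 7, 19, 7 and 8 counts in ND_PMA libraries, or 4.81, 6.04, 2.66 and 6.77 against 0.581, 1.22, 0.506 and 0.822 CPM. The groups did not overlap, and the log2 fold change was 2.67 ± 0.92 SE (edgeR adjusted p = 0.137). Klk14 passed in 2 of 16 alternatives, with DESeq2 and with the compared groups alone.

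Klk8, which encodes neuropsin, a trypsin-like protease of brain and epidermis, had the smallest SE of the 10 members here. It stood at 151, 162, 153 and 151 CPM in HFD_PMA and 87.8, 89.9, 99.1 and 101 CPM in ND_PMA libraries (log2 fold change 0.71 ± 0.10 SE, edgeR adjusted p = 0.00171). The 4 HFD_PMA libraries lay close together and far above the ND_PMA libraries. Klk6, a trypsin-like protease also known from oligodendrocytes of the central nervous system, had 379.8, 489.6, 277 and 301 CPM in HFD_PMA and 200.5, 231, 202 and 185 CPM in ND_PMA libraries. All HFD_PMA libraries were higher, and replicate 2 was the highest (log2 fold change 0.82 ± 0.20 SE, edgeR adjusted p = 0.0312). The call of Klk6 was lost without HFD_PMA replicate 1 (edgeR adjusted p = 0.0582) or 2 (0.121), without ND_PMA replicate 1 (0.0726), 3 (0.0773) or 4 (0.0834), and with scaling to keratinocyte markers (0.0639). Klk13, a trypsin-like member, had 307, 419, 202 and 207 CPM in HFD_PMA and 68.3, 125, 76.7 and 101 CPM in ND_PMA libraries (log2 fold change 1.61 ± 0.31 SE, edgeR adjusted p = 0.0111). HFD_PMA replicates 1 and 2 were the highest for both Klk6 and Klk13, and the groups did not overlap.

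Klk9, a chymotrypsin-like member, stood at 154, 146, 140.4 and 121 CPM in HFD_PMA and 89.2, 93.4, 87.6 and 82.3 CPM in ND_PMA libraries (log2 fold change 0.67 ± 0.12 SE, edgeR adjusted p = 0.00837). No library of one group reached the other. Klk10, known in human breast cancer as a gene silenced in tumours, had 517, 894, 452 and 528 CPM in HFD_PMA and 349.5, 424, 425 and 423 CPM in ND_PMA libraries. Its HFD_PMA replicate 2 stood far above the rest, and the log2 fold change was 0.56 ± 0.20 SE (edgeR adjusted p = 0.152). Without that library the log2 fold change of Klk10 was 0.32. Klk11 had 184, 231, 219.8 and 236 CPM in HFD_PMA and 145, 159.8, 169.7 and 160.2 CPM in ND_PMA libraries, with no overlap (log2 fold change 0.46 ± 0.12 SE, edgeR adjusted p = 0.0547). Without HFD_PMA replicate 1 Klk11 passed (edgeR adjusted p = 0.0279), as it did with RLE factors (0.04). Klk12 was low at 5.2, 12.2, 5.32 and 9.91 CPM in HFD_PMA and 2.32, 3.86, 6.5 and 8.63 CPM in ND_PMA libraries, and the groups overlapped (log2 fold change 0.61 ± 0.45 SE, edgeR adjusted p = 0.571).

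**Figure D2:**
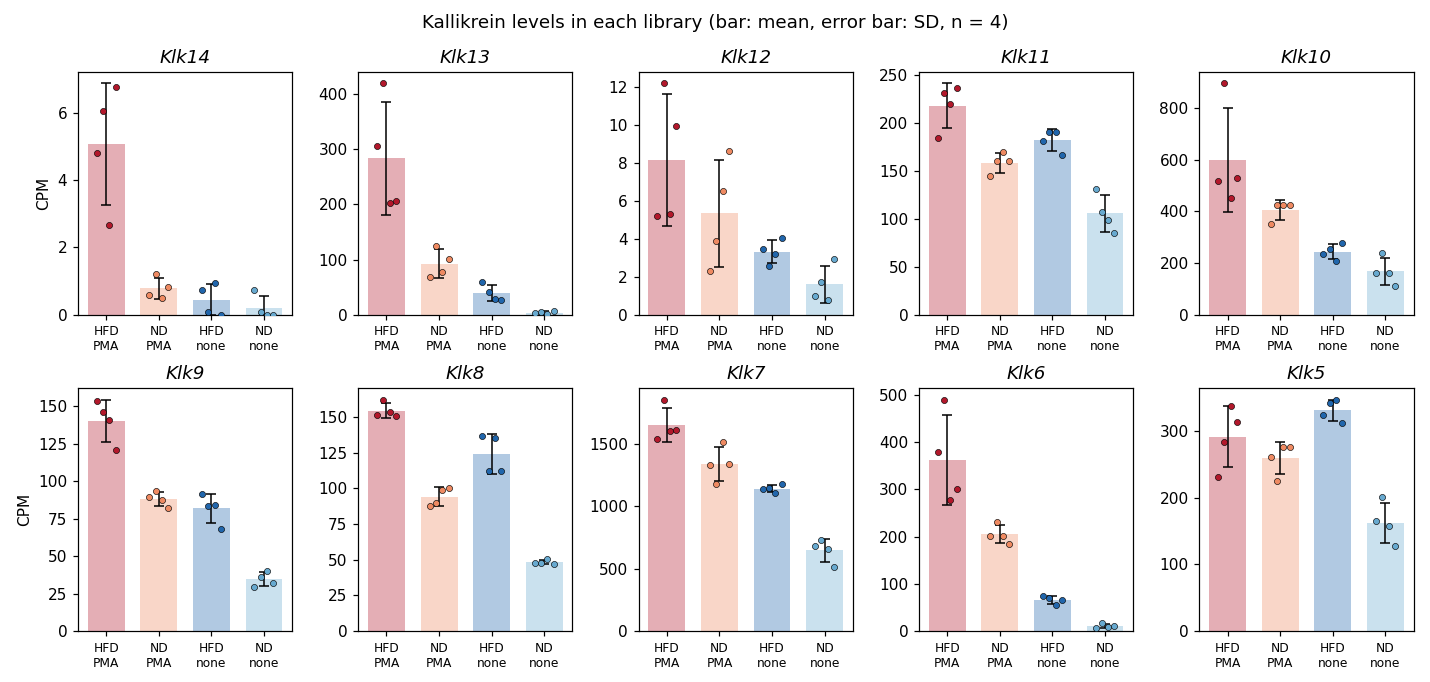
Each panel plots 1 kallikrein in CPM on a linear axis from 0, with points for the 4 libraries of a group, bars for the mean and error bars for the SD; panels follow the order of the genes on the chromosome. In 8 of 10 panels every HFD + PMA point lies above every ND + PMA point, and Klk13 is at 202 to 419 CPM in HFD + PMA and 1.63 to 6.40 CPM in untreated ND skin.

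The second question was what the diet did to kallikreins without PMA. In untreated ears Klk5, Klk6, Klk7, Klk8, Klk9, Klk11 and Klk13 were higher with the high-fat diet, and no member was lower. These 7 of 10 stand beside 2.87% of all genes called higher (505 of 17604) and 1.06% called lower. For the same 7 genes all HFD_cont libraries lay above all ND_cont libraries, which held for 7.18% of all genes. The median log2 fold change was 1.09 over the 10 kallikreins and -0.02 over all genes. Since 3 of 4 HFD_cont libraries differ from the ND_cont libraries in the prefix of their IDs, the comparison was repeated with HFD_cont replicate 1 alone against ND_cont, all of prefix RHS. There 5 kallikreins were called higher, with the lone library assumed to vary like the other groups, beside 0.623% of all genes higher and 0.0349% lower (125 and 7 of the 20069 that passed the filter in those libraries). With the prefix as a covariate 6 kallikreins were called higher, beside 0.926% of all genes higher and 0.0909% lower (163 and 16 of 17604). That fit takes the difference between prefixes from HFD_cont, where replicate 1 alone is RHS, so both repeats rest on this library. Among HFD_cont libraries it was the highest in summed hair markers (2882 CPM), Klk6, Klk8, Klk9 and Klk13, but not in the other members. Markers of suprabasal and granular cells (median log2 fold change 0.62) and of the hair shaft and inner root sheath (5.75) were also higher with the diet by their median in untreated skin, and their part in the result was not tested. Scaling to keratinocyte markers left 7 called, while all genes split into 254 higher and 204 lower, against 505 and 186 with TMM.

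Klk5 had 324, 341, 346 and 312 CPM in HFD_cont replicates 1 to 4, against 164, 201, 157 and 128 CPM in ND_cont replicates 1 to 4 (log2 fold change 1.03 ± 0.13 SE, edgeR adjusted p = 0.000206). All HFD_cont libraries were well above all ND_cont libraries. Klk7 had 1139.7, 1146, 1112 and 1179 CPM in HFD_cont and 685, 731, 661 and 515 CPM in ND_cont libraries (log2 fold change 0.82 ± 0.11 SE, edgeR adjusted p = 0.000268). The HFD_cont values of Klk7 lay close together and apart from the others, and within prefix RHS its edgeR adjusted p was 0.051. Klk14 had 6, 1, 13 and 0 counts in HFD_cont and 6, 1, 0 and 0 counts in ND_cont libraries. That is too few for a level, and the log2 fold change was 1.13 ± 1.06 SE (edgeR adjusted p = 0.661).

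Klk8 had 137, 112, 135 and 112 CPM in HFD_cont and 47.4, 48.1, 50.3 and 47.4 CPM in ND_cont libraries (log2 fold change 1.36 ± 0.11 SE, edgeR adjusted p = 3.82e-07). Neither group came near the other. Klk6 had 75, 69.8, 55.1 and 64.8 CPM in HFD_cont and 7.28, 17.6, 9.04 and 10.4 CPM in ND_cont libraries (log2 fold change 2.56 ± 0.22 SE, edgeR adjusted p = 1.41e-06). Klk13 had 59.2, 42, 29.3 and 27.4 CPM in HFD_cont and 2.84, 5.3, 1.63 and 6.4 CPM in ND_cont libraries (log2 fold change 3.28 ± 0.37 SE, edgeR adjusted p = 7.38e-05). Both genes were separated without overlap, and HFD_cont replicate 1 was the highest of its group for each.

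Klk9 had 91.4, 83.5, 84 and 68.2 CPM in HFD_cont and 29.6, 35.9, 40.3 and 32.1 CPM in ND_cont libraries, with no overlap (log2 fold change 1.24 ± 0.13 SE, edgeR adjusted p = 1.87e-05). Klk11 had 182, 190.2, 190.0 and 166 CPM in HFD_cont and 132, 107, 98.7 and 85.3 CPM in ND_cont libraries, also apart (log2 fold change 0.78 ± 0.12 SE, edgeR adjusted p = 0.000946). The call of Klk11 was lost with the prefix as a covariate (edgeR adjusted p = 0.0572) and within prefix RHS (0.0888). Klk10 had 234, 255, 208 and 276 CPM in HFD_cont and 162, 238, 159.8 and 112 CPM in ND_cont libraries, and ND_cont replicate 2 overlapped the HFD_cont range (log2 fold change 0.54 ± 0.20 SE, edgeR adjusted p = 0.155). Without that library Klk10 passed (log2 fold change 0.77, edgeR BH-adjusted p = 0.0359). Klk12 had 3.46, 2.55, 3.2 and 4.02 CPM in HFD_cont and 0.987, 1.7, 0.769 and 2.92 CPM in ND_cont libraries, which overlapped (log2 fold change 1.05 ± 0.48 SE, edgeR adjusted p = 0.274).

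The third question was what PMA did to kallikreins in HFD mice. Klk6, Klk7, Klk9, Klk10, Klk13 and Klk14 were higher in HFD_PMA than in HFD_cont skin, and no member was lower. Against these 6 of 10 genes, 7.34% of all genes were called higher (1292 of 17604) and 4.6% lower. In 8 of 10 all HFD_PMA libraries were above all HFD_cont libraries, which held for 10.8% of all genes. Over the 10 kallikreins the median log2 fold change was 1.04, and over all genes -0.02. The call counts of the kallikreins were alike with scaling to keratinocyte markers (6), although all genes then split into 890 higher and 1018 lower, against 1292 and 809.

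Among the corneodesmosome-cutting proteases Klk7 averaged 1654 ± 139.7 CPM in HFD_PMA and 1144 ± 27.3 CPM in HFD_cont skin (log2 fold change 0.53 ± 0.11 SE, edgeR adjusted p = 0.00325). Klk5 was the 1 member with a negative value, at 291 ± 45.9 CPM in HFD_PMA and 331 ± 15.8 CPM in HFD_cont skin, and its groups overlapped (log2 fold change -0.19 ± 0.13 SE, edgeR adjusted p = 0.435). The increase of Klk14 had a log2 fold change of 3.48 ± 0.97 SE (edgeR adjusted p = 0.022). It rests on few counts, since HFD_cont libraries held 0 to 13, and the call was lost without HFD_PMA replicate 2 (edgeR adjusted p = 0.0654), HFD_cont replicate 2 (0.0657) or HFD_cont replicate 4 (0.0582).

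The largest changes beside Klk14 were those of Klk13 and Klk6. Klk13 averaged 284 ± 103 CPM in HFD_PMA and 39.5 ± 14.7 CPM in HFD_cont skin (log2 fold change 2.85 ± 0.33 SE, edgeR adjusted p = 2.37e-05). For Klk6 the means were 362 ± 95.9 CPM in HFD_PMA and 66.2 ± 8.46 CPM in HFD_cont skin (log2 fold change 2.45 ± 0.21 SE, edgeR adjusted p = 5.64e-07). Klk10 averaged 598 ± 200.4 CPM in HFD_PMA and 243 ± 28.9 CPM in HFD_cont skin (log2 fold change 1.30 ± 0.20 SE, edgeR adjusted p = 0.000284), and Klk9 140.2 ± 14 against 81.8 ± 9.75 CPM (log2 fold change 0.78 ± 0.13 SE, edgeR adjusted p = 0.000381). In each of these 4 genes the groups did not overlap.

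Klk8, Klk11 and Klk12 did not pass. Klk8 averaged 155 ± 5.23 CPM in HFD_PMA and 124 ± 13.8 CPM in HFD_cont skin, without overlap (log2 fold change 0.32 ± 0.10 SE, edgeR adjusted p = 0.0527). Without HFD_cont replicate 1 the adjusted p of Klk8 in edgeR was 0.0488, and with the prefix as a covariate 0.044. The log2 fold change of Klk11 was 0.26 ± 0.12 SE (edgeR adjusted p = 0.203), and its groups overlapped. That of Klk12 was 1.30 ± 0.46 SE (edgeR adjusted p = 0.0704), with all HFD_PMA libraries above all HFD_cont libraries.

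The fourth question was what PMA did to them in mice on the normal diet. All members but Klk14 were higher in ND_PMA than in ND_cont skin. The share of all genes called higher was 8.96% (1577 of 17604), and 3.99% were called lower. In 8 of 10 kallikreins the groups did not overlap, as in 10.6% of all genes. The median log2 fold change was 1.31 over the kallikreins and 0.00 over all genes. Every ND_cont library carries the prefix RHS and every ND_PMA library RHP, so within this comparison prefix and treatment cannot be told apart. In the fit with prefix as a covariate, which rests on the HFD_cont libraries for the difference, 5 kallikreins were called higher (Klk6, Klk7, Klk8, Klk9 and Klk13), beside 2.2% of all genes higher and 0.369% lower (388 and 65, against 1577 and 702 without the covariate). The calls of Klk5, Klk10, Klk11 and Klk12 were lost in that fit (edgeR adjusted p = 0.238, 0.113, 0.248 and 0.359). All genes split into 1577 higher and 702 lower with TMM, 1320 and 938 with upper-quartile factors, 1607 and 1134 with DESeq2 and 1079 and 1041 with scaling to keratinocyte markers, and each of these scalings had 9 kallikreins higher. The scaling to keratinocyte markers moved the median log2 fold change of all genes by -0.10.

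Klk13 and Klk6 changed most. Klk13 averaged 92.8 ± 25.6 CPM in ND_PMA and 4.04 ± 2.19 CPM in ND_cont skin (log2 fold change 4.52 ± 0.38 SE, edgeR adjusted p = 3.32e-07). Klk6 averaged 204 ± 19.1 CPM in ND_PMA and 11.1 ± 4.53 CPM in ND_cont skin (log2 fold change 4.19 ± 0.23 SE, edgeR adjusted p = 6.02e-10). The lowest ND_PMA library of Klk6 had 185 CPM, against 17.6 CPM in its highest ND_cont library, and for Klk13 these were 68.3 and 6.40 CPM.

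The corneodesmosome-cutting proteases Klk7 and Klk5 were higher as well, without overlap of their groups. Klk7 averaged 1343 ± 136 CPM in ND_PMA and 648 ± 93 CPM in ND_cont skin (log2 fold change 1.05 ± 0.11 SE, edgeR adjusted p = 3.34e-06). Klk5 averaged 259 ± 24 CPM in ND_PMA and 162 ± 29.9 CPM in ND_cont skin (log2 fold change 0.67 ± 0.13 SE, edgeR adjusted p = 0.00171). For Klk14, whose groups overlapped at a few counts, the log2 fold change was 1.94 ± 1.03 SE (edgeR adjusted p = 0.253). Without ND_cont replicate 1, which held 6 of the 7 counts of its group, it was 4.17 (edgeR adjusted p = 0.0369).

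Klk8, Klk9, Klk10 and Klk11 were apart between the groups. Klk9 averaged 88.1 ± 4.57 CPM in ND_PMA and 34.5 ± 4.65 CPM in ND_cont skin (log2 fold change 1.35 ± 0.13 SE, edgeR adjusted p = 7.39e-07), and Klk10 405 ± 37.2 against 168 ± 51.8 CPM (log2 fold change 1.27 ± 0.20 SE, edgeR adjusted p = 0.000233). Klk8 averaged 94.3 ± 6.41 CPM in ND_PMA and 48.3 ± 1.37 CPM in ND_cont skin (log2 fold change 0.97 ± 0.11 SE, edgeR adjusted p = 4.53e-06), and Klk11 159 ± 10.4 against 106 ± 19.5 CPM (log2 fold change 0.59 ± 0.12 SE, edgeR adjusted p = 0.00294). Klk12 passed with overlapping groups (log2 fold change 1.73 ± 0.48 SE, edgeR adjusted p = 0.0194). Its call was lost without ND_PMA replicate 3 (edgeR adjusted p = 0.0521), ND_PMA replicate 4 (0.0763), ND_cont replicate 1 (0.0606) or ND_cont replicate 3 (0.0734).

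**Figure D3:**
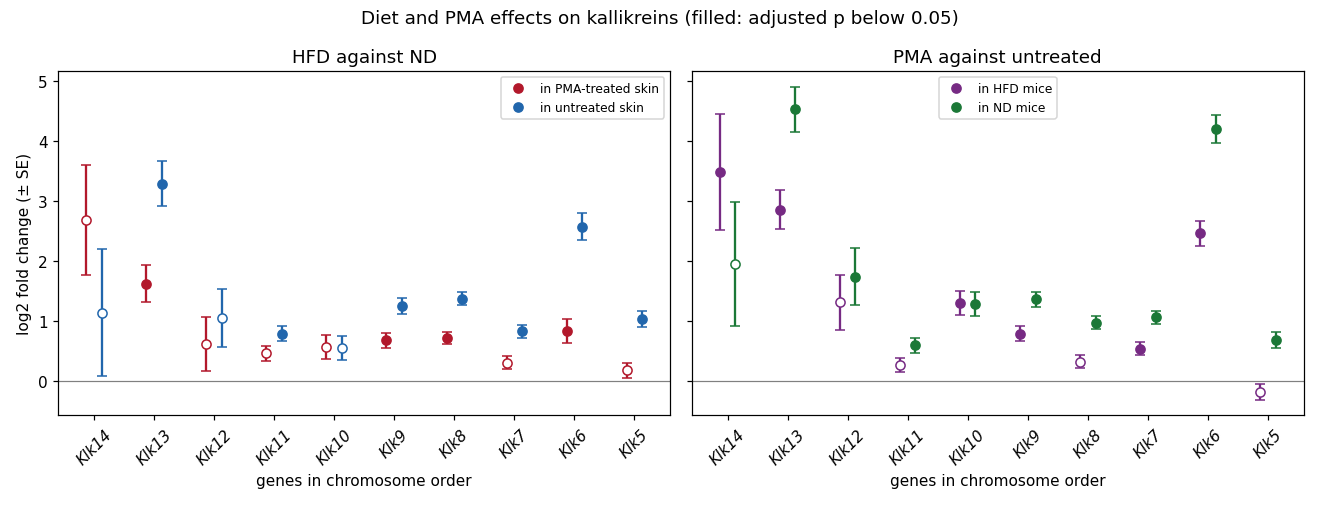
Points give the log2 fold change of each kallikrein with its SE, left for HFD against ND with and without PMA, right for PMA against untreated in HFD and in ND mice; filled points have an adjusted p below 0.05. Klk6 and Klk13 carry the largest called values in PMA-treated ND mice (4.19 and 4.52), and Klk5 has the only value below 0 (-0.19).

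The diet effects with and without PMA were set against each other by the interaction of diet and PMA. The 4 comparisons above share their groups, so their values are not independent of each other. By edgeR's quasi-likelihood test 0 of 10 kallikreins were called, and among all 17604 genes 0% were called higher and 1 gene (0.00568%) lower. An unadjusted p below 0.05 with a negative interaction was found for 6 kallikreins and for 2.86% of all genes (504). DESeq2 called 3 kallikreins (Klk5, Klk6 and Klk8), each with a smaller PMA effect in HFD mice, beside 0.0227% of all genes called higher and 0.0966% lower. The median of the interaction was -0.55 (log2) over the kallikreins and -0.04 over all genes. For Klk6 the PMA effect was 2.45 ± 0.21 SE in HFD mice and 4.19 ± 0.23 SE in ND mice (interaction -1.74 ± 0.29 SE, edgeR adjusted p = 0.0667). The interaction of Klk6 passed without HFD_PMA replicate 2 (edgeR adjusted p = 0.0154) and without ND_cont replicate 2 (0.00141). Klk13 had an interaction of -1.67 ± 0.48 SE (edgeR adjusted p = 0.73), Klk5 of -0.86 ± 0.19 SE (edgeR adjusted p = 0.278) and Klk8 of -0.65 ± 0.15 SE (edgeR adjusted p = 0.278). That of Klk10 was near 0 (0.02 ± 0.28 SE, edgeR adjusted p = 0.999). The values of Klk9, Klk7, Klk11 and Klk12 were -0.57 ± 0.18, -0.52 ± 0.16, -0.33 ± 0.17 and -0.43 ± 0.65 SE. Klk14 had the 1 large positive value, 1.54 ± 1.46 SE, at few counts. Every ND_cont library carries the prefix RHS and every PMA-treated library RHP, so prefix and interaction cannot be fully told apart. With the prefix as a covariate edgeR called 0 kallikreins and 2 of all genes in the interaction. DESeq2 was not run with this covariate.

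Epidermal protease inhibitors, further proteases and possible substrates were followed as lists. Not every listed gene is known to act on kallikreins or to encode a protein that they cut. Of all genes 0.943% were called higher and 1.26% lower with the diet after PMA, and 2.87% and 1.06% in untreated skin. With PMA these shares were 7.34% and 4.6% in HFD mice and 8.96% and 3.99% in ND mice. They are the background of all list counts here and below. Comparisons with ND_cont have the limit of the ID prefix, whose part in the list counts was not tested. Of 11 inhibitors 9 were tested. With the diet 1 was higher and none lower in PMA-treated skin, and 2 were higher and 1 lower in untreated skin. With PMA 2 were higher and none lower in HFD mice, and 2 were higher and 1 lower in ND mice. Their median log2 fold changes ran from 0.08 to 0.22, against -0.03 to 0.00 over all genes. Spink5, the gene of LEKTI, averaged 859 ± 76.5, 735 ± 235, 812 ± 53.7 and 758 ± 58.7 CPM in HFD_PMA, ND_PMA, HFD_cont and ND_cont skin and was called in no comparison. Its ND_PMA replicate 2 was low at 398 CPM. Spint2, which encodes an inhibitor of membrane-bound serine proteases, averaged 163 ± 19.4 CPM in HFD_PMA and 114 ± 6 CPM in ND_PMA skin (log2 fold change 0.51 ± 0.13 SE, edgeR adjusted p = 0.0358). In untreated skin it averaged 180.1 ± 13.3 CPM in HFD_cont and 114 ± 20.3 CPM in ND_cont libraries (log2 fold change 0.66 ± 0.13 SE, edgeR adjusted p = 0.00459). Slpi, encoding a secreted inhibitor of leukocyte elastase, had means of 101 ± 47.1, 57.7 ± 11.3, 8.67 ± 5.31 and 1.57 ± 0.707 CPM in HFD_PMA, ND_PMA, HFD_cont and ND_cont skin. It was higher with PMA in both diets and with the diet in untreated skin (log2 fold change 2.42 ± 0.43 SE, edgeR adjusted p = 0.00271). Serpina3n, a serine protease inhibitor gene, rose with PMA under the high-fat diet (log2 fold change 1.54 ± 0.20 SE, edgeR adjusted p = 6e-05) and in ND mice (1.89 ± 0.21 SE, edgeR adjusted p = 4.43e-06). A2m, which encodes the broad inhibitor alpha-2-macroglobulin, was lower with the diet in untreated skin (log2 fold change -1.32 ± 0.36 SE, edgeR adjusted p = 0.0434) and with PMA in ND mice (-1.66 ± 0.37 SE, edgeR adjusted p = 0.00418). Its libraries of prefix RHS were the highest, at 27.6, 37, 24.4 and 29.1 CPM in ND_cont and 20 CPM in HFD_cont replicate 1. HFD_cont replicates 2 to 4 had 6.18, 12.9 and 8.25 CPM, and the part of the prefix in these calls was not tested.

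Of 10 further proteases of the cascade 7 were tested. The membrane protease gene Tmprss13 averaged 218 ± 8.18 CPM in HFD_PMA and 138 ± 13.5 CPM in ND_PMA skin (log2 fold change 0.67 ± 0.10 SE, edgeR adjusted p = 0.00265), and was higher with the diet in untreated skin as well (0.54 ± 0.10 SE, edgeR adjusted p = 0.00446). Prss8, encoding prostasin, fell with PMA in HFD mice to 66.9 ± 13.3 CPM, against 97.7 ± 1.57 CPM in HFD_cont skin (log2 fold change -0.55 ± 0.17 SE, edgeR adjusted p = 0.0351). No member was called with PMA in ND mice. St14, the gene of matriptase, averaged 110.4 ± 12.2, 96.8 ± 21.9, 129 ± 8.67 and 119.5 ± 15.4 CPM in HFD_PMA, ND_PMA, HFD_cont and ND_cont skin without a call.

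The 8 genes of corneodesmosomes and desmosomes, the junctions cut in shedding, had no member called higher. Corneodesmosin, encoded by Cdsn, averaged 1681 ± 70.6, 1751 ± 206, 2103 ± 133 and 1781 ± 285 CPM in HFD_PMA, ND_PMA, HFD_cont and ND_cont skin and was not called. Dsg1c, a desmoglein gene of low level, was lower with the diet, at 3.51 ± 0.977 CPM in HFD_PMA and 12.5 ± 4.59 CPM in ND_PMA skin (log2 fold change -1.81 ± 0.39 SE, edgeR adjusted p = 0.0174). In untreated skin Dsg1c averaged 3.04 ± 1.5 CPM in HFD_cont and 9.2 ± 2.87 CPM in ND_cont libraries (log2 fold change -1.60 ± 0.39 SE, edgeR adjusted p = 0.0256). Dsg1a and its close copies Dsg1b and Dsg1c may share reads, which makes these values uncertain. Of 6 tested among 8 other substrates and receptors, Flg was the 1 member called. This gene of the filament-aggregating protein filaggrin averaged 348 ± 109, 133 ± 33.3, 679 ± 185 and 155 ± 23.5 CPM in HFD_PMA, ND_PMA, HFD_cont and ND_cont skin. It was higher with the diet in PMA-treated skin (log2 fold change 1.39 ± 0.22 SE, edgeR adjusted p = 0.00285) and in untreated skin (2.13 ± 0.23 SE, edgeR adjusted p = 2.1e-05), and lower with PMA in HFD mice (-0.97 ± 0.22 SE, edgeR adjusted p = 0.00584), where its groups overlapped. F2rl1, the gene of a receptor that trypsin-like kallikreins can cut and activate, averaged 36 ± 6.45, 38.6 ± 1.98, 29.2 ± 4.67 and 39.9 ± 2.56 CPM in HFD_PMA, ND_PMA, HFD_cont and ND_cont skin without a call.

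Among 10 other proteases of desquamation and filaggrin processing, all tested, with the diet 1 was higher after PMA and 4 without it. With PMA 3 were higher and 2 lower in HFD mice, and 5 higher and 1 lower in ND mice. Casp14, a caspase that processes filaggrin, averaged 364 ± 61.1, 171 ± 52.2, 322 ± 94.3 and 108 ± 11.2 CPM in HFD_PMA, ND_PMA, HFD_cont and ND_cont skin. It was higher with the diet in PMA-treated skin (log2 fold change 1.09 ± 0.21 SE, edgeR adjusted p = 0.00845) and in untreated skin (1.57 ± 0.21 SE, edgeR adjusted p = 0.000239). The lysosomal protease gene Ctsl averaged 973 ± 108, 876 ± 173, 537 ± 41.6 and 349 ± 107 CPM in the same order and was higher with PMA under the high-fat diet (log2 fold change 0.86 ± 0.17 SE, edgeR adjusted p = 0.00261) and in ND mice (1.33 ± 0.18 SE, edgeR adjusted p = 3.44e-05). Asprv1, the gene of an epidermal aspartic protease, was higher with the diet in untreated skin (log2 fold change 0.99 ± 0.15 SE, edgeR adjusted p = 0.000615) and lower with PMA in HFD mice (-0.49 ± 0.15 SE, edgeR adjusted p = 0.0355).

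**Figure D4:**
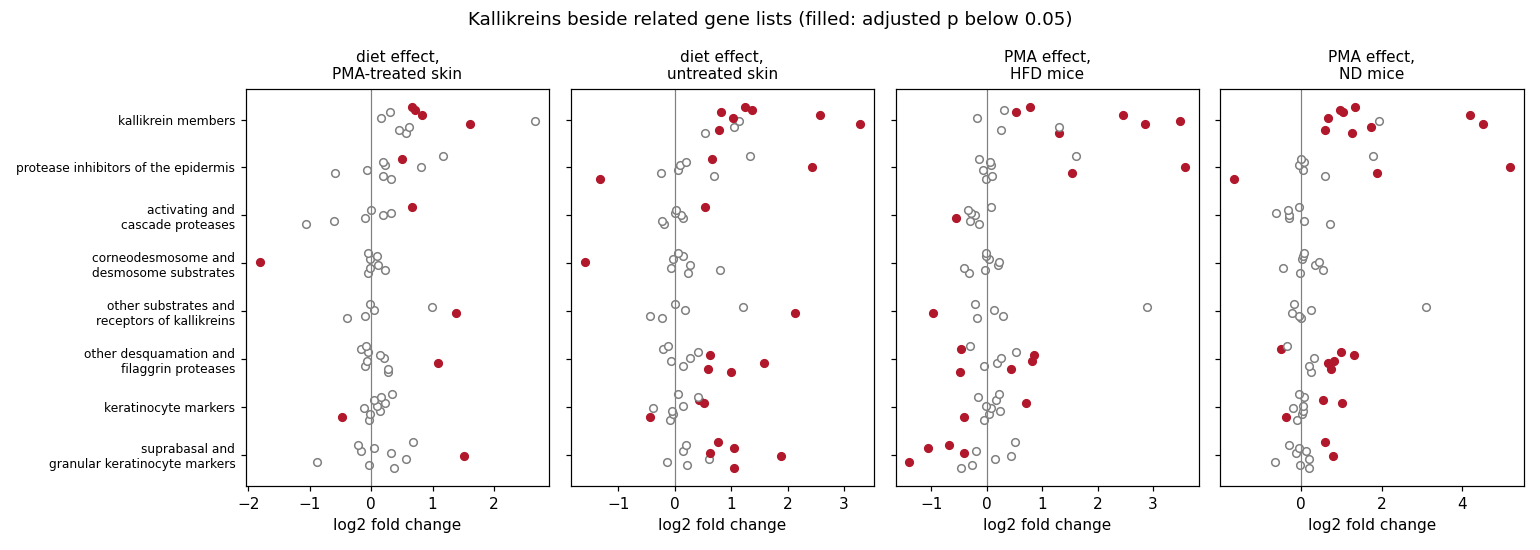
Each point is 1 tested gene, with its log2 fold change on the horizontal axis and its list on the vertical axis, in 4 panels for the 4 comparisons; filled points have an adjusted p below 0.05. The kallikreins lie to the right of 0 in nearly every case (Klk5 with PMA in HFD mice at -0.19 is the exception), while the inhibitors, substrates and keratinocyte markers lie on both sides.

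Markers of the cells that make kallikreins were followed beside them. Of the 10 keratinocyte markers 0 were higher and 1 lower with the diet after PMA, and 2 were higher and 1 lower without it. With PMA 1 was higher and 1 lower in HFD mice, and 2 were higher and 1 lower in ND mice. Their median log2 fold changes were 0.07, 0.02, 0.06 and 0.03 in the 4 comparisons, against 0.64, 1.09, 1.04 and 1.31 for the kallikreins. The keratinocyte markers summed to 27822 to 31955 CPM in HFD_PMA and 24936 to 29698 in ND_PMA libraries. In untreated skin the sums were 23761 to 24656 CPM in HFD_cont and 18958 to 23092 in ND_cont libraries. Only the PMA-treated groups overlapped, and the part of these sums in the kallikrein results was not tested. The 10 suprabasal and granular markers had 1 higher with the diet after PMA and 5 without it, and none lower. With PMA they had 4 lower in HFD mice and 2 higher in ND mice. The median log2 fold change of these 10 markers was 0.19 with the diet after PMA, 0.62 with the diet in untreated skin, -0.33 with PMA in HFD mice and 0.06 with PMA in ND mice. With the diet in untreated skin they were thus higher by their median, as the kallikreins were. Their summed level ran over 12415 to 14919.9 CPM in HFD_PMA, 9693 to 11989 in ND_PMA, 15119 to 19052 in HFD_cont and 10566 to 11467 in ND_cont libraries. All HFD libraries lay above all ND libraries of the same treatment. Lor, encoding the envelope protein loricrin of granular cells, averaged 543 ± 143, 528 ± 111, 1127 ± 72.1 and 543 ± 125 CPM in HFD_PMA, ND_PMA, HFD_cont and ND_cont skin. It was lower with PMA under the high-fat diet (log2 fold change -1.05 ± 0.19 SE, edgeR adjusted p = 0.00102), where 6 kallikreins were higher. Neutrophil markers (8 genes, 6 tested) summed to 327 to 1271 CPM in HFD_PMA, 100.3 to 324 in ND_PMA, 39.6 to 67.6 in HFD_cont and 27.9 to 54.9 in ND_cont libraries. None of the 8 was at 0 in every library. Of the 6 tested genes, 6 were higher with PMA in HFD mice and 4 in ND mice, and with the diet 0 after PMA and 1 without it. By the summed level of these markers every HFD_PMA library lay above every ND_PMA library, but narrowly, at 327 CPM or more against 324 or less. Fibroblast markers (6 genes) were lower for 3 with the diet after PMA and for 4 without it. Adipocyte markers (5 genes) were lower for 3 with PMA in HFD mice and for 5 in ND mice. The part of these other cell types in the kallikrein results was not tested.

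The genes most like each kallikrein with a mean of at least 5 CPM were sought among 11573 tested genes of at least that mean. Predicted gene models and genes of the mitochondrial genome were left out of the search. The measure was the root mean square difference of log2 CPM over the 16 libraries, after each gene was centred on its mean. For Klk6 they were Teddm3 (0.52), the cornified envelope precursor gene Sprr1b (0.53), the growth factor gene Epgn (0.54), Klk13 (0.57) and Rbp2 (0.57). For Klk13 they were the late envelope gene Lce3f (0.51), Sprr2h (0.54), Klk6 (0.57), Epgn (0.61) and Slpi (0.67). These 2 kallikreins were thus among the 5 most alike genes of each other. Klk9 was closest to Il1f9, which encodes the cytokine IL-36 gamma (0.23), and to Cd24a (0.24), followed by Klk8 (0.25). Klk8 was closest to Endou (0.16) and Trex2 (0.21), and Klk5 to Dnase1l2 (0.14) and Tmem40 (0.15). Klk7 was closest to the tubulin gene Tuba1c (0.14) and Anp32b (0.14), Klk11 to Rab38 (0.14) and Nradd (0.15), and Klk10 to the glycolytic gene Pgam1 (0.24) and its copy Pgam1-ps2 (0.24), which may share reads. All libraries and their depths are common to these values, which are descriptions.

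The kallikreins of the rest of the locus were nearly silent. Of 16 other kallikrein genes (Klk1, Klk4, Klk15 and the Klk1b genes) 11 had 0 counts in every library, the others 26 counts in all, and none could be tested. The neighbour Klk4 (chromosome 7, 43881160 to 43885804), beyond Klk5, had 0 counts. On the other side, beyond Klk14, Ctu1, a gene of tRNA modification (chromosome 7, 43672016 to 43678298), had 1008, 1270, 1008 and 838 counts in all over the libraries of HFD_PMA, ND_PMA, HFD_cont and ND_cont. The unclassified transcript Gm44814 lies within the span of Klk13 (43715990 to 43716423, plus strand) and had 329, 186, 29 and 3 counts in the same order. The antisense transcript 2310002F09Rik (43695209 to 43797958, minus strand) had 48, 74, 141 and 99 counts. It shares 287 exon bases (22.6%) with Klk14 and 382 (24.8%) with Klk8. The library protocol does not mark the strand, and no strand setting is given, so reads there cannot be assigned with certainty. The other 8 kallikreins share no exon bases with another annotated gene.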

How the data were processed

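Whole-ear RNA was turned into cDNA with a SMART-Seq2 protocol and sequenced as paired ends, per the labels' protocols. That protocol amplifies by PCR, without molecular identifiers and without marking the strand. Whole-number counts for each gene, together with a gene length in bases, are what the authors deposited in a single table. Per the submitters' processing notes, STAR 2.3, featureCounts 1.5, GRCm38 and mm10 were used. No settings and no annotation release were found in these sources. All 16 library columns matched 1 sample each.

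The filter was filterByExpr by group (minimum count 10, minimum total 15). The test was edgeR's robust quasi-likelihood test (edgeR 4.0.16 in R 4.3.3), with TMM factors and the 4 group means in 1 model of all 16 libraries. A gene was called when its p, adjusted by Benjamini-Hochberg over the 17604 tested genes, was under 0.05. Each SE was obtained from the F statistic, as the size of the log2 fold change over its square root. A prior count of 2 was added for log2 CPM, and CPM itself rests on totals after TMM scaling. TPM was computed from the deposited counts and length, and serves to compare genes. For a symbol with several IDs the one with the highest count was taken. Positions are those of GENCODE M21, matched by ID for 10 of 10 members, and promoter sequence is that of RefSeq. The procedure was tested on simulated data.

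The 10 members, the gene lists and the motifs were chosen with earlier results of these data known. All members were named in every comparison. Of every other list up to 4 called genes with the largest change and a mean of at least 1 CPM were eligible, or without any the 2 with the highest level. For a member called and at 5 CPM or more, the 5 most alike genes were eligible. The text gives a part of these, and St14, F2rl1, Cdsn, Lor and Spink5 were named for their known roles, with their values seen.

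Replicates are separate mice per the series' design. The 2 libraries of any pair within a group differed by more than sampling noise (chi-square per degree of freedom 10 to 49.9). The highest values were those of ND_PMA replicate 2 with replicates 1, 3 and 4 (46.1, 49.9 and 43.3). Other pairs of that group had 10.6 to 19.9. Of 24 pairs of libraries with the same replicate number, 2 correlated above 0.1 in their deviations from the group means (-0.067 to 0.202). Both were of HFD_PMA with HFD_cont, at 0.202 for replicate 1 and 0.116 for replicate 3. Pairs of unlike number were not computed, so this check cannot decide whether the numbers pair samples. The labels do not say that they do, and the main test used no pairing. Alternatives were DESeq2 1.42.0, other scaling factors and filters, the replicate block, the ID prefix as a covariate, the compared groups alone and leaving out each library.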

Additional observations from a re-analysis of the deposited data

Results flagged for a closer look

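In 40 groups of 4 CPM values, 10 genes in 4 groups, 2 values stood far from the other 3 of their group by Dixon's criterion. Chance alone gives about 1 in 20 groups.

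Klk10 in ND_PMA replicate 1 was at 349.5 CPM, below the other 3 libraries at 423 to 425 CPM, with a gap of 0.982 of the range. Klk14 in ND_cont replicate 1 was at 0.741 CPM (6 counts), above the other 3 libraries at 0 to 0.0946 CPM, with a gap of 0.872 of the range.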

How the results depend on the processing

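Single genes were followed through 923 alternatives of their log2 fold changes. In 875 the direction and the side of the threshold were kept, in 21 the call was lost, in 21 a call was gained, and in 6 the sign changed. The sign changes were all in the interaction of diet and PMA. For Klk10, near 0, the value became -0.058 with the replicate block, and it ran from -0.22 to 0.17 when 1 library was left out, with values of -0.22 without HFD_PMA replicate 2, -0.04 without ND_PMA replicate 1, -0.02 without HFD_cont replicate 3 and -0.16 without ND_cont replicate 2. For Klk14 it ran from -0.69, without ND_cont replicate 1, to 2.32. The cause was not tested.

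The number of kallikreins called lower in the interaction was 0, and 1 (Klk6) without a low-count filter, with a minimum of 5 CPM in 4 libraries and with the replicate block (log2 -1.82, edgeR adjusted p = 0.00483), and 3 with DESeq2, which called 4 genes higher and 17 lower among all. With the replicate numbers as a block no other call among the kallikreins changed. With the ID prefix as a covariate 5 instead of 9 kallikreins were higher with PMA in ND mice, where prefix and group coincide except through HFD_cont. All genes called in that comparison fell to 453 with the covariate, against 2279 without it. With the diet in untreated skin they fell to 179 with the covariate and 132 within prefix RHS, against 691.

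Leaving out 1 library at a time gave 3 to 4 kallikreins higher with the diet in PMA-treated skin, 7 to 8 in untreated skin, 5 to 7 with PMA in HFD mice, 8 to 9 in ND mice and 0 to 1 lower in the interaction. Called higher with the diet in PMA-treated skin were 5 with RLE factors and 6 with DESeq2. All genes called higher there were 203 and 424, against 166 with TMM in edgeR. With PMA in HFD mice DESeq2 called 8 kallikreins higher, beside 1486 of all genes, against 1292 with TMM in edgeR. The stricter filter left Klk14 untested. The comparison within prefix RHS was chosen after seeing the data. Klk12 and Klk14, at a few counts in some groups, are limited by depth, and counts do not separate PCR copies from molecules.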
